A study of Homo sapiens with 48 samples.

Results

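The 33 genes described here are known targets of p53, the transcription factor that answers DNA damage, oxygen lack and other stress. They were taken as a list of symbols, and all 33 were found among the 31426 gene symbols on the array. They were followed in 22Rv1 and PC-3, both established human prostate cancer cell lines, after 24 h at 6 oxygen levels, from 0% O2 through 0.2, 0.5 and 1% to 2 and 5%, and in a separate normoxia control for each level. Each of the 24 groups held 2 arrays of total RNA, 48 in all. The groups were 22Rv1 in hypoxia, 22Rv1 in normoxia, PC-3 in hypoxia and PC-3 in normoxia, each with 12 arrays over the 6 levels, and no group carried a drug or a transgene. Nothing in the labels says that replicates came from separate cultures, so the p-values rest on how far the arrays of a group differ, and that spread may be technical.

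p53 is held low in unstressed cells by MDM2, a ubiquitin ligase that is itself a p53 target, so that a rise of p53 is followed by a rise of its own inhibitor. When p53 accumulates it binds a repeated half-site near its targets and switches on genes that halt the cell cycle, repair DNA, restrain growth signals or start apoptosis. PC-3 is known to lack p53 protein, whereas 22Rv1 is known to make it, and the comparison of these lines is therefore a comparison of cells with and without the factor, among many other differences between them. Many listed genes also answer to other stress pathways, and CDKN1A, GADD45A and BTG2 are known to respond without p53.

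Markers separated the lines in part. KLK2, a prostate kallikrein, and FOLH1 (prostate-specific membrane antigen) were detected on all 24 arrays of 22Rv1 and on none of PC-3, but KLK3 (prostate-specific antigen) was detected on no array of either line. TMPRSS2, HOXB13 and STEAP2, also listed for 22Rv1, were detected on all 24 arrays of both lines, with a median for HOXB13 of 8.79 in 22Rv1 and 8.98 in PC-3. All 7 PC-3 markers were detected on every PC-3 array, AXL, S100A2 and LCN2 on no 22Rv1 array, and VIM and CD44 on all 24, at lower medians (7.88 and 7.22 in 22Rv1, 12.3 and 10.9 in PC-3). Of 12 markers of leukocytes, fibroblasts and vessels, 8 were detected on no 22Rv1 array and 7 on no PC-3 array, while PECAM1 was detected on 22 and COL1A1 on 21 of 24 PC-3 arrays, and CD14 on 10 arrays of each line. Between 13750 and 16494 probes were detected per array, and the number of arrays limits the precision. The deposited tables disagreed on 2 arrays: hypoxia and normoxia of 22Rv1 replicate 2 at 0.2% O2 were exchanged between them, and the intensity table was followed here. With its labels, BNIP3, a hypoxia gene, read from 10.94 to 13.07 on the 12 hypoxia arrays of 22Rv1 and from 9.26 to 10.14 on the 12 normoxia arrays, with no overlap, and ADM likewise from 7.09 to 12.33 and from 5.98 to 6.84.

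Of the 33 genes, 32 were tested. POLK, a damage-bypass DNA polymerase, was detected on no array. In 22Rv1, 21 of the tested genes were detected on all 24 arrays, 10 on some and PLK2 on none. In PC-3, 24 were detected on all 24 arrays, 6 on some, and BTG2 and FAS on none. Levels are given below as background-corrected, quantile-normalized log2 intensity, where a difference of 1 is a doubling of signal and values near 4.5 lie at background. A gene was called changed at a Benjamini-Hochberg adjusted p under 0.05 over the 16438 genes tested in limma. Arrays compare equal amounts of RNA from whole cultures, so a change in every cell and a larger change in some cells cannot be told apart.

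A search of RefSeq promoters (GRCh38.p14, 250 bases before to 50 after each gene's start) covered 28 of the 33 genes. The p53 consensus half-site, a 10-base motif that reads the same on both strands, was present in 5 of 28 promoters (17.9%), against 2329 of 35116 promoters of all genes (6.63%). A full site, 2 half-sites with at most 13 bases between them, was present in DDB2 of the listed genes and in 10 promoters of all 35116 (0.0285%). The 5 matches are shown because p53 recognises these letters, in windows of 30 bases read 5′ to 3′ on the gene's strand with the half-sites in capitals. A match is a description of the sequence and not a measured binding site.
DDB2, chr11:47214975-47215004, plus strand: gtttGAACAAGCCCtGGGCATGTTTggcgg
AEN, chr15:88621296-88621325, plus strand: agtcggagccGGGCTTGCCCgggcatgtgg
EI24, chr11:125569457-125569486, plus strand: cgtgcggcccGGGCATGCCCagtgcgggcg
RPS27L, chr15:63157517-63157546, minus strand: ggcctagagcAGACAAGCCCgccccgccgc
PLK2, chr5:58460199-58460228, minus strand: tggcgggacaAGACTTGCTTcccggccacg
The DDB2 site lies 6 to 26 bases after the start of the gene, with 1 base between its half-sites. DDB2 also rose at 0% O2 in 22Rv1, as did AEN, EI24 and RPS27L. The EI24 and RPS27L calls did not survive the loss of some single arrays. Of the 32 tested genes 20 rose there, most of them without a match or not covered by the search. A link between site and change was not tested. PLK2 was detected on no 22Rv1 array.

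At 0% O2 in 22Rv1, 20 of the 32 genes rose and none fell, against 13.7% of all genes higher and 15.5% lower (29.2% called). The median change of the 32 genes was 0.75 on the log2 scale, against -0.02 over all genes tested. The 12 genes not called were BAX, PMAIP1, BBC3, PERP, TRIAP1, RRM2B, TP53I3, FDXR, EPHA2, ZMAT3, PLK2 and BTG1. With the replicates paired as blocks, 21 rose and ZMAT3 fell, against 17.5% of all genes higher and 19.8% lower in that fit. FAS passed the detection filter only through the 2 arrays of this group, and without it 19 of 31 genes rose. The known hypoxia genes ANGPTL4, ADM, BNIP3, NDRG1, VEGFA and SLC2A1 rose on the same arrays, and CA9 was not detected on them. The 2 hypoxia arrays detected 14699 and 16494 probes, against 13995 and 15522 on their controls, and the part of this difference in the counts was not tested. The summed level of the 8 markers of 22Rv1 was 1165 and 1228 intensity units on the 0% arrays, against 1568 and 1586 on their controls, and its part was not tested either.

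**Figure D1:**
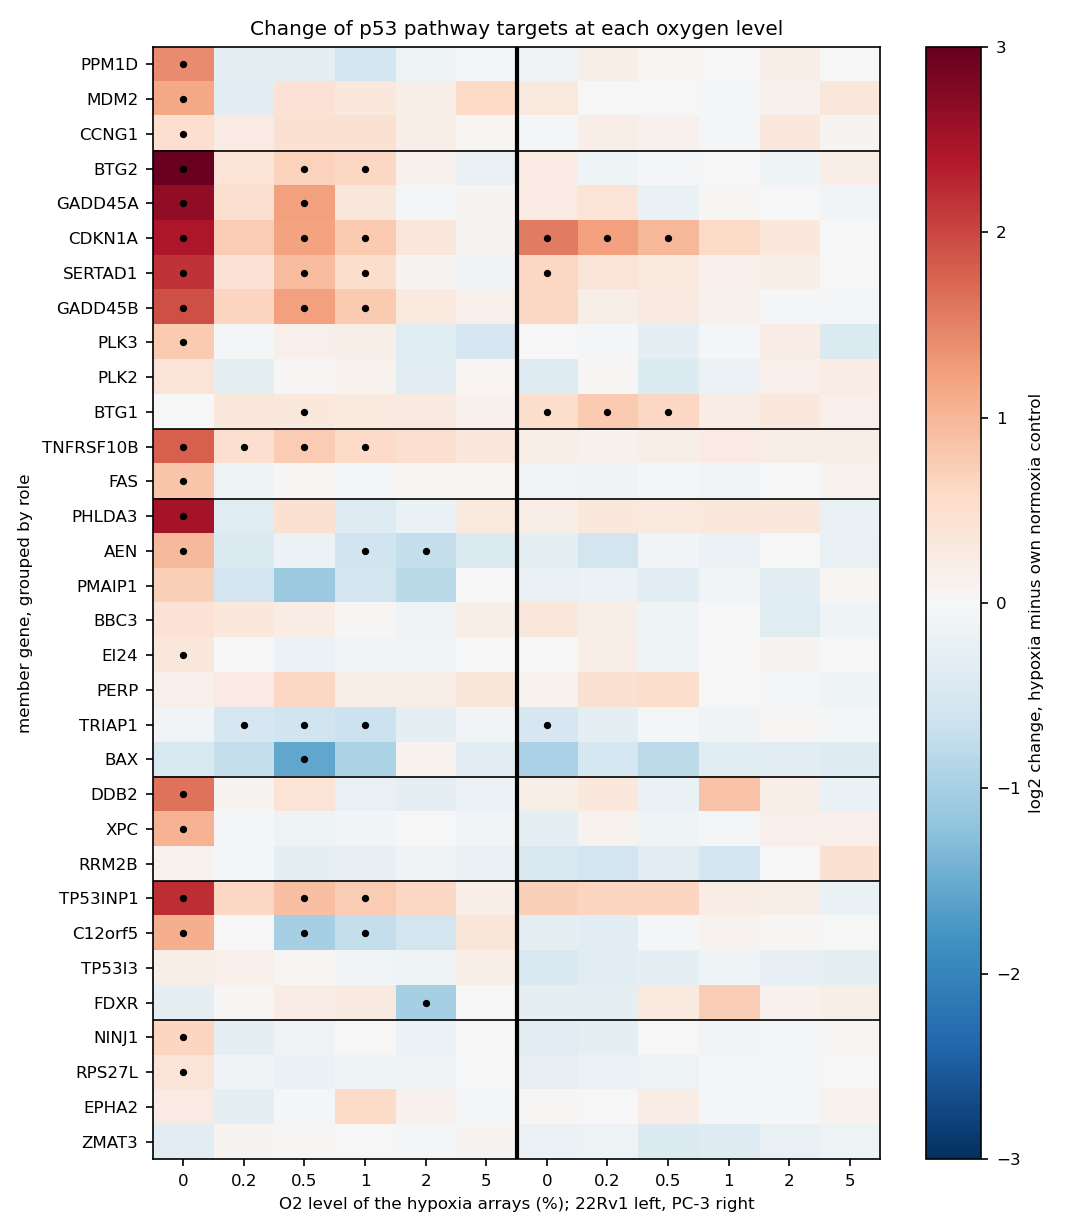
Log2 change (hypoxia minus own normoxia control, colour scale) of the 32 tested genes, in rows grouped by role, at the 6 oxygen levels in columns, with 22Rv1 left and PC-3 right. Dots mark an adjusted p under 0.05 in limma; at 0% O2, 20 genes carry a dot in 22Rv1 and 4 in PC-3.

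All 3 genes that restrain p53 rose. PPM1D (Wip1), the phosphatase that removes activating phosphates from p53 and its kinases, read 7.65 and 8.12 at 0% O2, against 6.26 and 6.65 in normoxia, a change of 1.43 ± 0.25 (SE, limma adjusted p = 4.28e-05). MDM2 read 6.65 and 6.20, against 5.48 and 5.04 in controls, of which 1 of 2 detected it (change 1.16, limma adjusted p = 0.000332). CCNG1, cyclin G1, which recruits a phosphatase to MDM2, read 9.42 and 9.68, against 9.05 on both controls. The groups did not overlap for any of the 3. With 2 arrays in each group this also held for genes not called, such as PMAIP1 and BBC3, so it adds little to the calls. The share of all genes without overlap was not counted. CCNG1 changed by 0.50 ± 0.18, and its call was lost without hypoxia replicate 2 (0.38), without control replicate 1 (0.51) and without control replicate 2 (0.50).

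Of the 8 genes grouped under cell cycle arrest and antiproliferation, 6 were called higher, and arrest itself was not measured. BTG2, an antiproliferative partner of the mRNA deadenylation complex, read 9.24 and 9.31 at 0% O2, against 6.21 and 6.43 in normoxia, a change of 2.95 ± 0.19 (SE, limma adjusted p = 8.46e-14). GADD45A, a stress sensor that acts on the mitotic cyclin-dependent kinase, read 9.43 and 9.54, against 6.76 and 6.87. CDKN1A (p21), the inhibitor of cyclin-dependent kinases through which p53 stops cells before S phase, read 13.19 and 13.13, against 10.72 and 10.78. In each of these the replicates lay far closer to each other than to the other group. GADD45A changed by 2.67 ± 0.32 (limma adjusted p = 6.03e-08) and CDKN1A by 2.42 ± 0.27 (limma adjusted p = 1.3e-08).

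SERTAD1, a CDK4-binding regulator, read 9.72 and 9.60 at 0% O2, against 7.51 and 7.46 in normoxia (change 2.17, limma adjusted p = 1.32e-11). GADD45B, a relative of GADD45A, read 7.61 and 7.50, against 5.64 and 5.61 (change 1.92, limma adjusted p = 1.14e-07). PLK3, a stress-activated polo-like kinase, was detected on both 0% arrays and on neither control, and was at least 1.11-fold higher. BTG1, the close relative of BTG2, did not follow it: it read 12.63 and 12.65, against 12.63 and 12.64, a change of 0.00 ± 0.11.

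**Figure D2:**
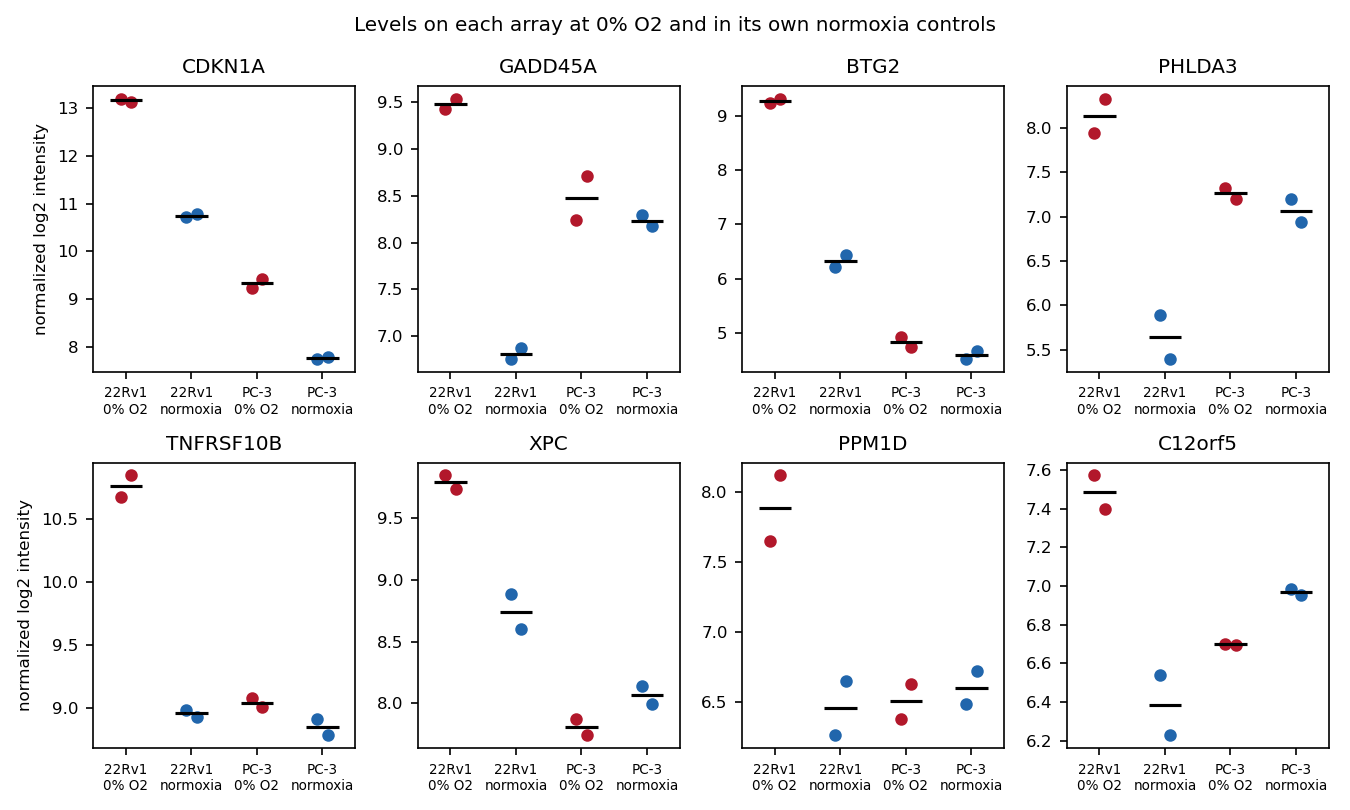
Normalized log2 intensity on each array (points) and group mean (bars) of 8 genes at 0% O2 and in the matching normoxia controls, for 22Rv1 and then PC-3; the vertical axes differ between panels and do not start at 0. The 8 genes shown were all called higher at 0% O2 in 22Rv1, so their separation there adds nothing to the calls. In 22Rv1 both 0% arrays lie above both controls in all 8 panels. In PC-3 this holds for CDKN1A, BTG2, PHLDA3 and TNFRSF10B, of which CDKN1A passed the test and BTG2 was at background.

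Of the death receptors, TNFRSF10B (DR5), the receptor for the ligand TRAIL, read 10.67 and 10.85 at 0% O2, against 8.99 and 8.93 in normoxia, a change of 1.80 ± 0.16 (SE, limma adjusted p = 1.67e-10). A dimmer TNFRSF10B probe changed by 1.94. FAS, the receptor for FAS ligand, was detected on both 0% arrays of 22Rv1 and on no other array of the series, and was at least 1.12-fold higher than on its controls. Since it entered the test only through the arrays where it was high, it had to differ, and its call supports nothing.

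Of the 8 genes grouped under mitochondrial apoptosis, 3 were called higher and 5 were not. The label is broad, and its pore-forming and BH3-only genes BAX, PMAIP1 and BBC3 were among those not called. PHLDA3, which blocks the survival kinase AKT at the membrane, read 7.95 and 8.33 at 0% O2, against 5.89 and 5.4 in normoxia (change 2.49 ± 0.23, limma adjusted p = 3.67e-10). AEN, an apoptosis-enhancing nuclease, read 7.87 and 8.0, against 7.0 and 6.93 (change 0.97, limma adjusted p = 0.000148). EI24, a membrane protein linked to autophagy, changed by 0.34 ± 0.12. These 3 did not overlap between groups, which with 2 arrays in each also held for genes not called. The EI24 call was lost without hypoxia replicate 1 (0.18), control replicate 1 (0.34) or control replicate 2 (0.34), and its second probe changed by 0.04.

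The BH3-only and pore-forming genes, through which p53 opens the outer mitochondrial membrane, were not called. BAX, which forms the pore, read 6.68 on both 0% arrays, against 6.61 and 7.71 in normoxia. PMAIP1 (NOXA) read 6.52 and 6.67, against 5.55 and 6.20, and BBC3 (PUMA) read 6.23 and 6.53, against 5.74 and 6.18. PMAIP1 changed by 0.72 ± 0.43 and BBC3 by 0.42 ± 0.22 (limma adjusted p = 0.229 and 0.153). Their groups did not overlap, although the controls spread widely, and with the replicates paired the limma adjusted p of PMAIP1 was 0.00344. PERP, a desmosomal death effector, and TRIAP1, an inhibitor of apoptosome activity, changed by 0.14 ± 0.52 and -0.09 ± 0.15.

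Nucleotide excision repair was represented by XPC and DDB2, and both rose. XPC, which finds helix-distorting lesions, read 9.85 and 9.74 at 0% O2, against 8.88 and 8.61 in normoxia (change 1.05 ± 0.15, limma adjusted p = 9.65e-07). DDB2, which finds ultraviolet damage, read 6.26 and 6.77, against 4.71 and 5.08, with 1 of 2 controls detected (change 1.62 ± 0.25, limma adjusted p = 5.19e-06). RRM2B, the p53-inducible ribonucleotide reductase subunit that supplies deoxynucleotides to resting cells, changed by 0.10 ± 0.22 and was not called.

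Among the redox and metabolic genes, TP53INP1, an antioxidant cofactor of p53 with a part in autophagy, read 9.38 and 9.56 at 0% O2, against 7.14 and 7.37 in normoxia (change 2.22 ± 0.25, limma adjusted p = 2.01e-08). C12orf5 (now TIGAR), which lowers glycolytic flux, read 7.57 and 7.40, against 6.54 and 6.23 (change 1.10 ± 0.21, limma adjusted p = 0.000116). TP53I3, a quinone oxidoreductase, and FDXR, a mitochondrial electron carrier, were dim in 22Rv1 and not called. Of the remaining 4 genes, NINJ1, an adhesion protein that ruptures the membrane of dying cells, changed by 0.64 ± 0.14 and RPS27L, a ribosomal protein paralog, by 0.39 ± 0.11. RPS27L lost its call without hypoxia replicate 1 (0.33) or control replicate 1 (0.37). ZMAT3, an RNA-binding zinc finger protein, and EPHA2, an ephrin receptor, changed by -0.31 ± 0.20 and 0.24 ± 0.26.

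Whether 0% O2 differed from the levels above it was tested as the effect at 0% minus the mean effect at 0.2, 0.5 and 1%. In 22Rv1, 20 of 32 genes responded more at 0% and none less, against 6.67% and 6.52% of all genes. The median excess was 0.83 against -0.02 over all genes. Without FAS, which passed the detection filter only through the 0% arrays of 22Rv1, 19 of 31 genes responded more. PHLDA3 exceeded its response at 0.2 to 1% by 2.59 ± 0.27 (SE, limma adjusted p = 1.71e-08), BTG2 by 2.37 ± 0.22 (limma adjusted p = 1.75e-09) and GADD45A by 1.99 ± 0.37 (limma adjusted p = 0.000231). PPM1D, C12orf5 and AEN exceeded theirs by 1.81, 1.68 and 1.36, having shown values below 0 at 0.5 and 1%. PMAIP1, which was not called at 0% itself, was called in this comparison (1.48 ± 0.50, limma adjusted p = 0.0439), and CCNG1 was not (0.11 ± 0.21). In PC-3 the same comparison called 0 of 32 genes and 0 of all 16438 (0%) in limma, with 2 and 481 at an unadjusted p under 0.05.

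Without hypoxia replicate 1 at 0%, the count in 22Rv1 fell to 15, and EI24 (0.27), GADD45B (0.98), MDM2 (0.80), PLK3 (0.44) and PMAIP1 (1.55) lost their calls. The controls at 0% also mattered for 4 of these: EI24 lost its call without replicate 1 (0.43) or 2 (0.43), MDM2 without replicate 2 (0.80), PLK3 without replicate 1 (0.60) and PMAIP1 without replicate 1 (1.15). PMAIP1 lost its call as well without hypoxia replicate 2 at 0% (1.40) or any of 6 arrays at 0.2 to 1% (hypoxia replicate 1 or control replicate 2 of each level), where it was 1.34 to 1.43.

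The difference between the lines at 0% O2 was tested directly, as the change in 22Rv1 minus the change in PC-3. It was positive and called for 16 of 32 genes and negative for 1, against 6.59% and 5.94% of all genes, with a median of 0.86 against -0.00 over all genes. BTG2 changed by 2.71 more in 22Rv1 (SE 0.27, limma adjusted p = 1.68e-08), though in PC-3 it was at background throughout. GADD45A changed by 2.43 more (SE 0.45, limma adjusted p = 0.000274) and PHLDA3 by 2.30 more (SE 0.33, limma adjusted p = 8.19e-06), and both were well detected in PC-3 on every array. GADD45A read 8.24 and 8.71 at 0% O2 in PC-3, against 8.29 and 8.18 in normoxia, and PHLDA3 read 7.32 and 7.2, against 7.19 and 6.94. Neither was called in PC-3, where GADD45A overlapped between the groups and PHLDA3 came close to it.

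TNFRSF10B, SERTAD1, PPM1D, TP53INP1, C12orf5, XPC, GADD45B and AEN changed by 1.26 to 1.60 more in 22Rv1 and each passed the test. NINJ1 and RPS27L, called higher in 22Rv1, were lower on both 0% arrays of PC-3 than on both controls without passing the test there, and differed between the lines by 0.95 and 0.64. The difference in CDKN1A was 0.85 ± 0.38 and did not pass (limma adjusted p = 0.155), and with the replicates paired it did (limma adjusted p = 0.00597). MDM2 was likewise not called (0.86 ± 0.34, limma adjusted p = 0.102) and was at background on all 4 PC-3 arrays. The gene with the opposite sign was BTG1 (-0.52 ± 0.15, limma adjusted p = 0.017). With pairing, 22 genes were called positive, against 10.6% of all genes. Without FAS, 15 of 31 genes were positive in the unpaired fit. With the mean of its probes CDKN1A differed by 1.32 and was called (limma adjusted p = 0.000116), though its second probe was detected on 2 arrays in all. Calls were lost for BTG1 without PC-3 hypoxia replicate 1 (-0.39), PC-3 control replicate 1 (-0.52) or 22Rv1 hypoxia replicate 1 (-0.51), for DDB2 without PC-3 hypoxia replicate 1 (1.04), and for PLK3 without any 1 of 6 arrays (0.53 to 0.79), namely all 4 of PC-3 and replicate 1 of both 22Rv1 groups.

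Above 0% O2 the response of 22Rv1 narrowed to a smaller group. At 0.5%, 8 genes rose and 3 fell (13% and 15% of all genes, 28.1% together). At 1%, 6 rose and 3 fell (7.43% and 7.11%, 14.5% together). At 0.2%, TNFRSF10B rose and TRIAP1 fell (5.82% and 5.2%, 11% together), and at 2% none rose while AEN and FDXR fell (2.85% and 1.28%, 4.12% together). At 5% none was called in limma, against 0.0913% of all genes (0.0852% higher and 0.00608% lower), with 4 members at an unadjusted p under 0.05. The order of counts did not follow the oxygen level, since 0.2% gave fewer calls than 0.5 or 1%. The same held over all genes (11% called at 0.2%, against 28.1% at 0.5% and 14.5% at 1%), so this order is not particular to the listed genes. Pairing the replicates gave 6 up and 3 down at 0.2% (9.58% and 10.4% of all genes in that fit), 8 and 6 at 1% (11.7% and 12.3%), and 3 and 5 at 2% (6.91% and 5.09%).

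CDKN1A, GADD45B, BTG2, TP53INP1, TNFRSF10B and SERTAD1 were called higher at 0, 0.5 and 1%. CDKN1A read 12.22 and 11.46 at 0.5% O2 in 22Rv1, against 10.83 and 10.43, and 11.34 and 11.51 at 1%, against 10.67 and 10.60. Its change was 1.21 at 0.5%, 0.79 at 1%, 0.34 at 2% and 0.07 at 5%, each with an SE of 0.27. TNFRSF10B, the single gene to rise at 0, 0.2, 0.5 and 1%, changed by 1.80, 0.50, 0.76 and 0.58, each with an SE of 0.16. Its 12 hypoxia arrays lay between 9.05 and 10.85 and its 12 normoxia arrays between 8.78 and 9.07. The ranges overlapped by the lowest hypoxia array, but at every level both hypoxia arrays lay above both of their own controls.

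The replicates at 0.5% stood apart. GADD45A read 9.08 and 7.25, against 7.08 and 6.79 in normoxia, and GADD45B 7.73 and 6.62, against 6.04 and 5.83. Without hypoxia replicate 1, the 11 calls at 0.5% shrank to 3, and those lost were BAX (-1.28), BTG1 (0.24), BTG2 (0.53), CDKN1A (0.83), GADD45A (0.31), GADD45B (0.69), TNFRSF10B (0.45) and TP53INP1 (0.74). Without control replicate 2, BTG1 (0.14), BTG2 (0.61) and TP53INP1 (0.69) lost theirs. The calls at 1% were also thin, with 5 left without hypoxia replicate 1, 2 without hypoxia replicate 2, 2 without control replicate 1 and 4 without control replicate 2. CDKN1A, GADD45B, SERTAD1 and TP53INP1 lost their calls without any of these 4 arrays, at values no nearer 0 than 0.70, 0.65, 0.46 and 0.64. At 0.2%, TNFRSF10B lost its call without hypoxia replicate 1 (0.20) or control replicate 1 (0.57) or 2 (0.42), and TRIAP1 without hypoxia replicate 1 (-0.17) or control replicate 2 (-0.32).

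**Figure D3:**
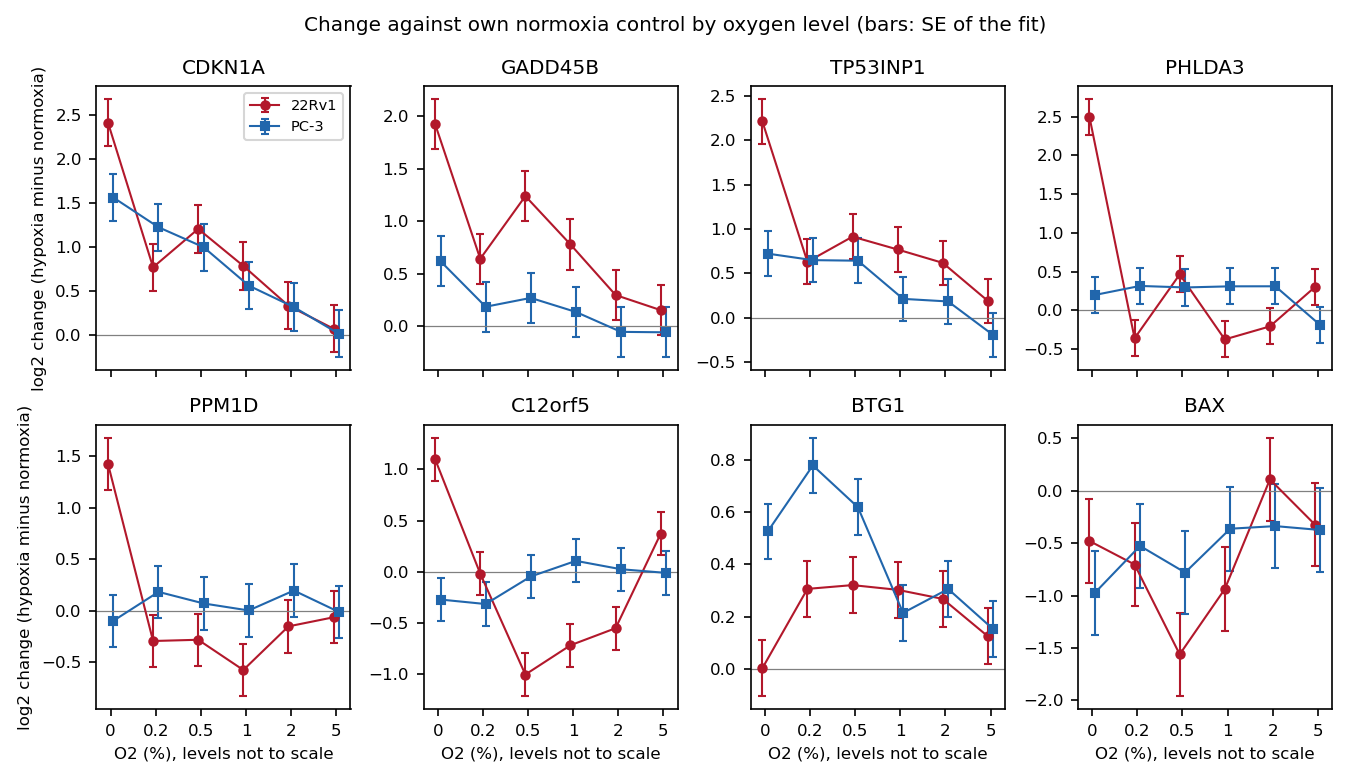
Log2 change (hypoxia minus own normoxia control, with the SE of the fit as bars) of 8 genes at the 6 oxygen levels, which are spaced evenly and not to scale; circles are 22Rv1 and squares PC-3. CDKN1A lies above 0 from 0 to 2% in both lines, whereas PHLDA3, PPM1D and C12orf5 are called higher at 0% in 22Rv1 alone.

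Averaged over the 6 levels, 11 genes rose and 3 fell in 22Rv1, against 19.8% and 22.8% of all genes (42.6% called), and the median change was 0.11 against -0.01. CDKN1A changed by 0.93 ± 0.11 (SE, limma adjusted p = 1.67e-08), with hypoxia arrays from 10.82 to 13.19 (median 11.40) and normoxia arrays from 10.43 to 10.91 (median 10.77). TP53INP1 changed by 0.89 ± 0.10 (limma adjusted p = 1.2e-08), from 7.42 to 9.56 (median 8.13) in hypoxia and from 7.07 to 7.70 (median 7.31) in normoxia. GADD45B changed by 0.84 ± 0.10 (limma adjusted p = 1.34e-08), from 5.92 to 7.73 (median 6.64) in hypoxia and from 5.61 to 6.37 (median 5.98) in normoxia. In all 3 the ranges of hypoxia and normoxia overlapped at the milder oxygen levels. TP53INP1 overlapped at 0.2% as well, where hypoxia replicate 2, labelled differently in the other deposited table, read 7.42.

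GADD45A, BTG2, TNFRSF10B and SERTAD1 rose by 0.79, 0.77, 0.74 and 0.68 on average, and MDM2, PHLDA3, CCNG1 and BTG1 by 0.39, 0.39, 0.32 and 0.22. BTG1, which did not change at 0%, read between 12.71 and 13.25 on the hypoxia arrays at 0.2 to 5% and between 12.60 and 13.03 on their controls. The mean of PHLDA3 rested on 0%: with that level left out it was -0.04 (limma adjusted p = 0.835). The mean of MDM2 was then 0.24 and no longer called.

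The 3 genes that fell on average in 22Rv1 were BAX, TRIAP1 and AEN. BAX changed by -0.65 ± 0.16 (SE, limma adjusted p = 0.00137), with hypoxia arrays from 5.4 to 7.76 (median 6.47) and normoxia arrays from 6.05 to 8.16 (median 7.24). At 0.5% it read 5.4 and 5.96, against 7.25 and 7.24, its single call at one level (-1.56 ± 0.40). The BAX controls spread by 0.63 (SD, n = 12), against 0.13 for CDKN1A. A dimmer BAX probe, detected on 9 of 24 arrays in 22Rv1, changed by -0.27 on average.

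TRIAP1 changed by -0.37 ± 0.06 on average (SE, limma adjusted p = 4.8e-06), and was called at 0.2, 0.5 and 1% but not at 0%. At 1% it read 8.59 and 8.66, against 9.18 and 9.35 in normoxia. AEN and C12orf5 turned with the oxygen level, rising at 0% and falling at 1 and 2% (AEN) or 0.5 and 1% (C12orf5). The AEN call at 1% was lost without hypoxia replicate 2 (-0.39), control replicate 1 (-0.60) or control replicate 2 (-0.58). Its call at 2% was lost without hypoxia replicate 1 (-0.46) or control replicate 1 (-0.52). The C12orf5 call at 1% was lost without hypoxia replicate 2 (-0.48) or control replicate 1 (-0.63). AEN read 6.59 and 6.17 at 1%, against 6.97 and 6.99 (change -0.59, limma adjusted p = 0.0304), and its mean over levels was -0.23, a call lost without hypoxia replicate 1 at 2% (-0.18). C12orf5 read 4.88 and 5.25 at 0.5%, against 6.01 and 6.13 (change -1.0, limma adjusted p = 0.00042), and was detected on 1 of those 2 hypoxia arrays. FDXR at 2% was detected on neither hypoxia array and on 1 of 2 controls, and was at least 1.27-fold lower.

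In PC-3 fewer members were called than in 22Rv1, and fewer of all genes were called as well. At 0% O2, CDKN1A, BTG1 and SERTAD1 rose and TRIAP1 fell (3 and 1 of 32 genes, against 4.36% and 4.51% of all genes, 8.86% together), with a median change of -0.01 against -0.02. At 0.2 and 0.5%, CDKN1A and BTG1 rose and none fell (2.69% and 2.02% of all genes at 0.2%, 4.71% together, and 2.4% and 1.66% at 0.5%, 4.06% together). At 1, 2 and 5% none was called in limma (1.37%, 0.298% and 0.00608% of all genes), with 4, 1 and 2 genes at an unadjusted p under 0.05. With the replicates paired, 5 genes were higher and 4 lower at 0% (16.1% of all genes called in that fit), 3 and 2 at 0.2, 0.5 and 1% (10.8%, 10% and 4.15%), and 0 at 2 and 5% (1.3% and 0.347%). All 7 hypoxia genes listed as a check rose in PC-3 at 0%, ANGPTL4 by 5.60.

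CDKN1A in PC-3 read 9.23 and 9.42 at 0% O2, against 7.75 and 7.78 in normoxia, a change of 1.56 ± 0.27 (SE, limma adjusted p = 0.000148). At 0.2% it read 8.76 and 9.66, against 7.92 and 8.05, and at 0.5% it read 9.08 and 9.27, against 7.95 and 8.39. The groups did not overlap at these levels, nor at 1%, where CDKN1A was not called. The changes were 1.23 at 0.2% and 1.0 at 0.5%, both called, and at 1, 2 and 5% they were 0.56, 0.32 and 0.02. The call at 0.2% was lost without hypoxia replicate 2 (0.78) or control replicate 1 (1.16), and that at 0.5% without hypoxia replicate 1 (1.10), hypoxia replicate 2 (0.90) or control replicate 1 (0.78). Over the 6 levels CDKN1A changed by 0.78 ± 0.11 in PC-3, and the difference from 22Rv1, 0.15 ± 0.16, was not called (limma adjusted p = 0.548).

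BTG1 rose more in PC-3 than in 22Rv1. It read 11.12 and 11.20 at 0.2% O2 in PC-3, against 10.35 and 10.41 in normoxia (change 0.78 ± 0.11, limma adjusted p = 9.28e-06). At 0% it read 11.13 and 10.86, against 10.46 and 10.48 (change 0.53), a call lost without hypoxia replicate 1 (0.39). At 0% SERTAD1 changed by 0.63 ± 0.17, a call lost without any 1 of the 4 arrays (0.56 to 0.70), and TRIAP1 by -0.51 ± 0.15, lost without hypoxia replicate 1 (-0.41) or control replicate 2 (-0.40).

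Averaged over the levels, 5 genes rose and 5 fell in PC-3, against 10.7% and 13.3% of all genes (24% called), and the median was 0.02 against -0.01. Those that rose were CDKN1A (0.78), BTG1 (0.43), TP53INP1 (0.37), SERTAD1 (0.27) and TNFRSF10B (0.19). A second TNFRSF10B probe, detected on 17 of 24 PC-3 arrays, changed by -0.06, and the mean of its probes, 0.085, was not called. Those that fell were BAX (-0.56), TP53I3 (-0.29), ZMAT3 (-0.26), RRM2B (-0.25) and AEN (-0.22). BAX in PC-3 read from 5.2 to 5.67 (median 5.33) in hypoxia and from 5.51 to 6.29 (median 5.92) in normoxia, a change that limma called (-0.56 ± 0.16, adjusted p = 0.0101). TP53INP1 read from 5.78 to 6.92 (median 6.14) in hypoxia and from 5.10 to 6.26 (median 5.89) in normoxia. Calls that did not survive the loss of 1 array were RRM2B (16 of 24 arrays, -0.26 to -0.23), TNFRSF10B (10 arrays, 0.17 to 0.19), AEN (8 arrays, -0.22 to -0.19) and ZMAT3 (hypoxia replicate 2 at 1%, -0.21). With 0% left out of the mean, BAX (-0.48), SERTAD1 (0.20), TNFRSF10B (0.19), TP53INP1 (0.30), RRM2B (-0.20) and AEN (-0.21) lost theirs.

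The mean response differed between the lines in 8 genes, 7 of them with a larger value in 22Rv1 (11.2% of all genes) and BTG1 with a smaller one (11.5% of all genes lower). BTG2 differed by 0.75 ± 0.11 (SE, limma adjusted p = 4.69e-06), GADD45A by 0.73 ± 0.19 (limma adjusted p = 0.004), GADD45B by 0.65 ± 0.14 (limma adjusted p = 0.000603) and TNFRSF10B by 0.55 ± 0.09 (limma adjusted p = 3.99e-05). TP53INP1 differed by 0.52, SERTAD1 by 0.40 and BTG1 by -0.21. With 0% left out of the mean, GADD45A (0.38), SERTAD1 (0.18), TP53INP1 (0.33), TP53I3 (0.30) and BTG1 (-0.15) lost their calls. The difference in TP53I3 (0.35 ± 0.11) came from PC-3, where the gene read from 6.44 to 6.98 (median 6.71) in hypoxia and from 6.65 to 7.58 (median 6.98) in normoxia, whereas in 22Rv1 it was detected on 1 of 24 arrays. The mean of its probes gave 0.19, not called, and the call was also lost with median centring (0.40), without the detection filter (0.35) and with the other table's labels (0.31).

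In normoxia the lines differed in 22 of the 32 genes, 11 higher and 11 lower in 22Rv1, against 39.3% and 32.5% of all genes. CDKN1A read from 10.43 to 10.91 (median 10.77) in 22Rv1 and from 7.75 to 8.54 (median 7.98) in PC-3, a difference of 2.68 ± 0.11 (SE, limma adjusted p = 2.65e-21). Its highest level in PC-3 under hypoxia, 9.66, stayed below the lowest in 22Rv1 normoxia. BTG1 read from 12.60 to 13.03 in 22Rv1 and from 10.34 to 10.67 in PC-3 (difference 2.21), and TP53INP1 from 7.07 to 7.70 and from 5.10 to 6.26 (difference 1.5). These ranges did not overlap. BTG2 and MDM2 were detected on no PC-3 normoxia array and on 12 and 9 of 12 in 22Rv1, where they were at least 2.15-fold and 1.13-fold higher. BAX, XPC, RPS27L, NINJ1, AEN and TRIAP1 were higher in 22Rv1 by 1.23, 0.64, 0.54, 0.39, 0.35 and 0.31. The BAX difference belongs to the brighter probe, since the dimmer one gave -0.23 and was not called.

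**Figure D4:**
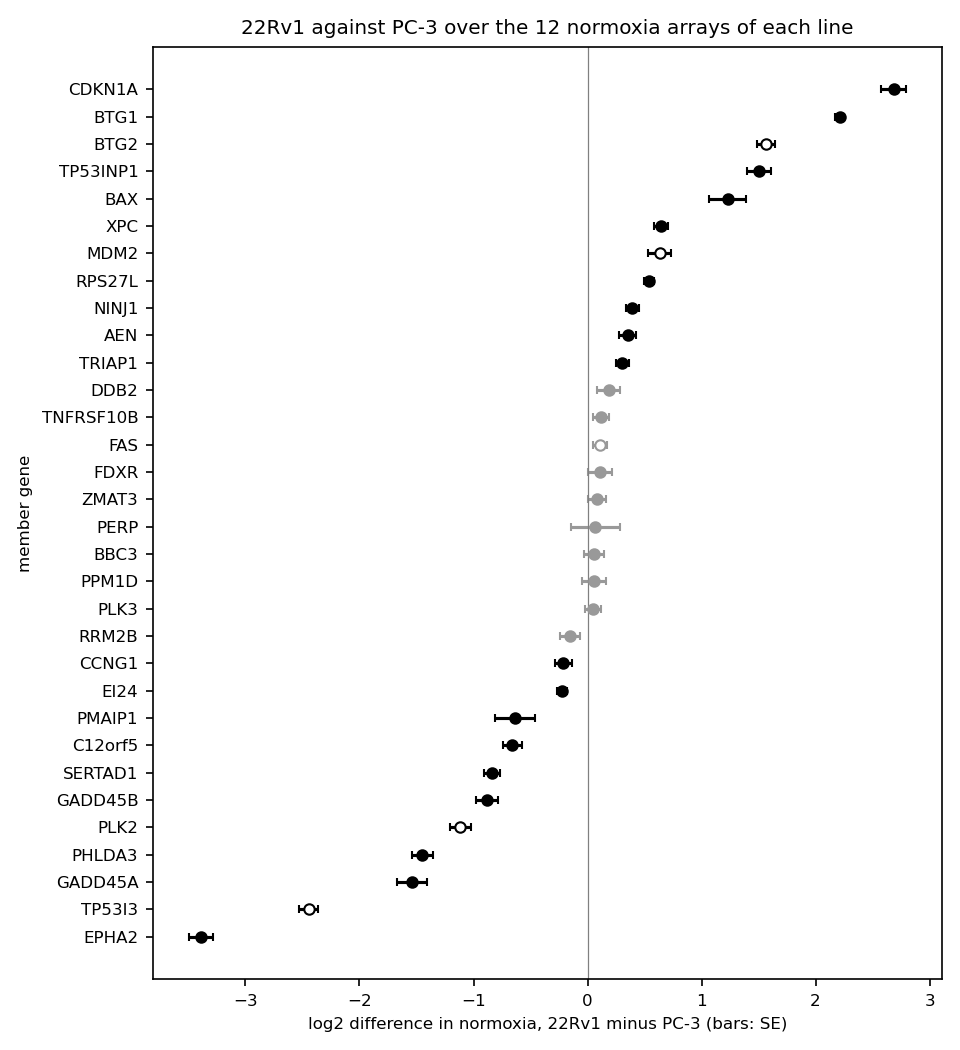
Log2 difference in normoxia (22Rv1 minus PC-3, with the SE as bars) of the 32 tested genes over the 12 normoxia arrays of each line. Black marks an adjusted p under 0.05, grey none, and open circles genes detected on no normoxia array of at least 1 line; values run from 2.68 for CDKN1A to -3.39 for EPHA2.

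Other p53 targets were lower in 22Rv1 than in PC-3 in normoxia. EPHA2 differed by -3.39 ± 0.10 (SE, limma adjusted p = 7.01e-25), from 4.60 to 5.89 in 22Rv1 and from 8.38 to 8.75 in PC-3. TP53I3 and PLK2, a polo-like kinase of the stress response, were detected on no 22Rv1 normoxia array and were at least 3.69-fold and 1.39-fold lower there. GADD45A differed by -1.54 ± 0.13, PHLDA3 by -1.45, GADD45B by -0.88 and SERTAD1 by -0.84. These 4 were thus lower in 22Rv1 before hypoxia and were raised by 0% O2, and there GADD45A reached 9.43 and 9.54, above its highest PC-3 level of 8.82. C12orf5, PMAIP1, EI24 and CCNG1 were lower by 0.66, 0.64, 0.22 and 0.21 on the log2 scale in 22Rv1.

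Of 26 listed regulators of p53, 23 were tested. At 0% O2 in 22Rv1 PPP1R13B (ASPP1), which steers p53 to apoptosis genes, rose by 0.71 ± 0.19, while the checkpoint kinases CHEK1 and CHEK2, which phosphorylate p53, fell. CHEK1 read 6.57 and 6.56 at 0% O2, against 8.05 and 8.12 in normoxia (change -1.52 ± 0.20, limma adjusted p = 2.36e-07), and CHEK2 6.70 and 6.41, against 7.71 and 7.84 (change -1.22 ± 0.21, limma adjusted p = 2.61e-05). Their groups were far apart. In PC-3 at 0%, TP53BP2 (ASPP2) rose by 0.62 and no regulator fell, against 4.36% of all genes higher and 4.51% lower. In 22Rv1 at 0% these shares of all genes were 13.7% and 15.5%. Over the levels 3 rose and 5 fell in 22Rv1, among them PPP1R13L (iASPP, an inhibitor of p53, 0.81 ± 0.11) and CHEK1 (-1.17 ± 0.08), and 4 rose and 1 fell in PC-3. These counts stand beside 19.8% of all genes higher and 22.8% lower in 22Rv1, and 10.7% and 13.3% in PC-3. The median of the list was 0.01 at 0% in 22Rv1. MDM4, the partner of MDM2, changed by 0.57 ± 0.26 at 0% in 22Rv1 and by 0.02 ± 0.26 in PC-3 and was not called, though with the replicates paired MDM4 was called in 22Rv1 (limma adjusted p = 0.0376).

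A further list of 33 p53 targets, 30 of them tested, was also followed. At 0% O2 in 22Rv1, 10 rose and 4 fell, with a median of 0.24, against 13.7% and 15.5% of all genes. In PC-3 4 rose and none fell, with a median of 0.12, against 4.36% and 4.51% of all genes. GDF15, a stress cytokine, read 12.20 and 11.96 at 0% O2 in 22Rv1, against 7.70 and 7.51 in normoxia (change 4.48 ± 0.45, limma adjusted p = 1.42e-09), and 10.54 and 10.21 in PC-3, against 9.64 and 9.08 (change 1.02 ± 0.45, limma adjusted p = 0.176, and 0.00209 with the replicates paired). The difference between the lines was 3.46 ± 0.63 (limma adjusted p = 0.000203). SESN1, a sestrin that restrains growth signalling, singled out after its values were seen, read 8.52 and 8.41, against 5.87 and 6.21, in 22Rv1, and was detected on none of these 4 arrays in PC-3.

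Some genes of this list moved in PC-3 as well or in opposite directions. APAF1, the scaffold of the apoptosome, rose by 1.04 ± 0.21 in 22Rv1 and 1.37 ± 0.21 in PC-3 at 0%, and IGFBP3, which binds insulin-like growth factors, by 1.30 ± 0.50 and 2.46 ± 0.50. Neither differed between the lines in limma (adjusted p = 0.584 and 0.343), but with the replicates paired IGFBP3 did (limma adjusted p = 0.000771). SFN (14-3-3 sigma), which holds cells before mitosis, read 8.19 and 8.17, against 8.65 and 8.73, in 22Rv1 (change -0.51) and 9.07 and 9.23, against 8.14 and 7.96, in PC-3 (change 1.10). That difference was -1.61 ± 0.27 (limma adjusted p = 7.08e-05). BID, a BH3-only protein likewise singled out after its values were seen, was detected on both controls and on neither 0% array in 22Rv1, where it was at least 2.12-fold lower.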

How the data were processed

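Total RNA of 48 samples was labelled and hybridized to Illumina bead arrays. The authors deposited non-normalized intensity for every probe. Each value has a detection p-value that the authors deposited with it. The submitters' processing notes name BeadStudio 3.1.3.0. A further table of linear intensities deposited by the authors, made in a way the labels do not state, served as an alternative.

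Background was corrected with limma 3.58.1 (normal-exponential model, with negative controls inferred from detection p-values and an offset of 16), then quantile-normalized and logged in R 4.3.3; these log2 values were computed here from the deposited intensities. Probes detected at p under 0.01 on at least 2 arrays were kept, with the brightest probe per symbol (16438 genes). A model with a mean for each of 24 groups was fitted to all arrays (24 residual degrees of freedom, 32.3 with the prior, variance trend), and p-values were adjusted by Benjamini-Hochberg within each comparison at a threshold of 0.05. It was tested on simulated data. For a group with no detected array, folds are lower bounds against the lowest detected signal.

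The members, lists and tests were chosen with earlier results of these data known. All members were accounted for. Array values were given for members with a called difference of the mean between lines or a mean change of at least 0.5, and at 0% O2 for others. From the further lists MDM4 and up to 4 genes with the largest called mean change in a line were eligible to be named. Other values were chosen after they were seen. Some listed genes are not reported here.

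Deviations of same-numbered hypoxia and control arrays from their group means correlated by 0.181 to 0.448 in 22Rv1 and 0.328 to 0.472 in PC-3. All were over 0.1, so a fit with each pair as a block was set beside the unblocked one. Same-numbered controls of other levels correlated as well, by 0.156 on average in 22Rv1 and 0.317 in PC-3, against 0.288 and 0.398 within a pair. The correlation was therefore only in part particular to the pair. Promoter sequences are RefSeq's, and figures were drawn with matplotlib 3.10.9 in Python 3.11.15.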

Additional observations from a re-analysis of the deposited data

Results flagged for a closer look

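Responses to hypoxia that differed between 22Rv1 and PC-3 by a test of the difference itself (22Rv1 minus PC-3, limma, adjusted over all genes) are listed here. At 0% O2 the differences in log2 change were 2.71 for BTG2, 2.43 for GADD45A, 2.30 for PHLDA3, 1.60 for TNFRSF10B, 1.54 for SERTAD1, 1.53 for PPM1D, 1.49 for TP53INP1, 1.44 for DDB2, 1.37 for C12orf5, 1.31 for XPC, 1.30 for GADD45B and 1.26 for AEN. They were 0.95 for NINJ1, 0.92 for FAS, 0.78 for PLK3, 0.64 for RPS27L and -0.52 for BTG1. FAS and PLK3 were at background on all 4 PC-3 arrays and on the 22Rv1 controls, so these values are set against background, and FAS entered the test only through the 22Rv1 arrays at 0%, where it was high, so its call supports nothing. The DDB2 value was 1.04 and not called without PC-3 hypoxia replicate 1 at 0%.

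For the mean over the 6 levels the differences were 0.75 for BTG2, 0.73 for GADD45A, 0.65 for GADD45B, 0.55 for TNFRSF10B, 0.52 for TP53INP1, 0.40 for SERTAD1, 0.35 for TP53I3 and -0.21 for BTG1. BTG1 was the single gene of both comparisons with a larger response in PC-3. Groups of 2 arrays are too small for a test of outlying samples.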

How the results depend on the processing

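Slide as a block was not run, since the files name no slide, and the comparison of lines in normoxia has no pairs to block. Counts below are members called in both directions together. With the replicate block, 22Rv1 had 9 at 0.2%, 14 at 1% and 8 at 2%, against 2, 9 and 2 without it, and PC-3 had 9 at 0%, 5 at 0.2%, 5 at 0.5% and 5 at 1%, against 4, 2, 2 and 0. Median centring in place of quantile normalization gave 0 at 0.2%, 7 at 0.5%, 1 at 1% and 1 at 2% in 22Rv1, 1 at 0% and 1 at 0.5% in PC-3, 5 for the PC-3 mean (against 10) and 4 for the difference of the mean (against 8). It moved the median of all genes by -0.29 in PC-3 at 0.5%, 0.21 in PC-3 at 5% and -0.20 in 22Rv1 at 5%. Over all genes it called 404 higher and 234 lower at 0.2% in 22Rv1, against 957 and 854 with quantile normalization. For the PC-3 mean it called 958 and 1332 of all genes, against 1756 and 2190. At 0% O2 in 22Rv1 median centring ended the calls of CCNG1, EI24, NINJ1 and RPS27L.

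At 0.2% in 22Rv1 the count of 2 became 4 without background correction or with the authors' table, 1 without a filter, with each line alone or without a variance trend, 0 with array weights, 9 with pooled controls, 0 with the other table's labels and 5 with the 2 differently labelled arrays left out. At 1% in 22Rv1 it was 4 without a filter, 3 with each line alone and 4 with the other labels. At 2% in 22Rv1 it was 1 with the filter of 12 arrays, 1 with each line alone, 4 with pooled controls, 0 with the other labels and 4 without those 2 arrays. In PC-3 it was 8 at 0%, 5 at 0.2%, 3 at 1% and 1 at 2% with pooled controls, 4 at 0.2% with the line alone, and 1 at 0.5% with the other labels. With 0% left out, the PC-3 mean had 4 and the difference of the mean 4. The calls over all genes moved as well in several of these settings. At 0.2% in 22Rv1 they were 957 higher and 854 lower in the fit used above, and 963 and 860 without background correction. They were 415 and 169 with array weights, 1718 and 1941 with pooled controls, and 0 and 0 with the other labels. At 2% in 22Rv1 the other labels gave 24 higher and 9 lower, against 468 and 210. The causes were not tested.

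Leaving out 1 array at a time gave 17 to 19 calls at 0%, 0 to 8 at 0.2%, 3 to 13 at 0.5%, 2 to 5 at 1%, 0 to 1 at 2% and 0 at 5% in 22Rv1. In PC-3 it gave 1 to 4 at 0%, 1 to 2 at 0.2% and at 0.5%, and 0 above. It gave 13 to 16 for the 22Rv1 mean, 8 to 11 for the PC-3 mean, 8 to 9 for the difference of the mean, 15 to 21 for 0% beyond 0.2 to 1% in 22Rv1 and 0 in PC-3, 14 to 17 for the difference at 0% and 22 to 24 in normoxia. The sign turned in 2 cases: RRM2B in normoxia was 0.25 higher in 22Rv1 with the mean of its probes (-0.15 with the brightest), and the PHLDA3 mean was -0.036 without 0%. Signal over background limits FAS, PLK3, FDXR and DDB2, detected on 2, 3, 3 and 10 of 24 arrays in 22Rv1.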

Other observations

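Cell cycle genes that p53 is known to repress through CDKN1A and the DREAM complex were followed as a list of 19, all of them tested. At 0% O2 in 22Rv1, 18 fell and none rose, with a median change of -1.62 on the log2 scale, against 15.5% of all genes lower. In PC-3 at 0%, 5 fell and none rose, with a median of -0.35, against 4.51% of all genes lower. CCNB1, the mitotic cyclin, read 6.21 and 5.98 at 0% O2 in 22Rv1, against 8.23 and 8.68 in normoxia (change -2.36 ± 0.25, limma adjusted p = 5.04e-09). In PC-3 it read 6.43 and 6.86, against 7.24 and 7.81 (change -0.88 ± 0.25, limma adjusted p = 0.0216). The difference between the lines was -1.48 ± 0.35 (limma adjusted p = 0.00376), and 13 of the 19 genes were called lower in 22Rv1 by that test and none higher, against 5.94% of all genes lower.

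Over the 6 levels, 18 of the 19 fell in 22Rv1 and 4 in PC-3, against 22.8% and 13.3% of all genes lower. CCNE2, the cyclin of S-phase entry, changed by -1.45 ± 0.12 in 22Rv1 (limma adjusted p = 1.99e-11) and by -0.26 ± 0.12 in PC-3, where it was not called. E2F1, a transcription factor of S-phase genes, was the member not called in 22Rv1 (0.04 ± 0.12). All comparisons of a level share their control arrays with the values given for the p53 targets.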
